A study of Mus musculus with 8 samples.

Results

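The values described here are those of genes measurable in hair matrix keratinocytes of wild type and Tet2/3 knockout mice, with and without 5-aza, and the question is how far the genotype difference of each gene changed under the drug. A gene was a member if its identifier stood in both deposited tables and its mean FPKM (fragments scaled for gene length and library total) was at least 1 in each of the 4 groups. Of 26200 genes in both tables, 8573 met this rule, and 8512 of them also passed a filter on low read counts and were fitted. The 61 others are members without a fitted value. At the edge of the rule, Gen1 was inside with a lowest group mean of 1.00032 FPKM and Ssh1 was outside with 0.999987.

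The groups were WT untreated, Tet2/Tet3 DKO untreated, WT with 5-aza and Tet2/Tet3 DKO with 5-aza, with 2 libraries each. The DKO mice carried Krt14-Cre, a Cre transgene under the promoter of a keratin of basal epithelial cells, so deletion is limited to cells in which that promoter has been active. The labels give WT mice no Cre or floxed alleles. Skin was harvested at postnatal day 4.5 and matrix cells were sorted, and the treated mice had received 50 µg of 5-aza under the skin at postnatal day 2.5. The untreated mice are described as harvested directly, with no mention of a vehicle injection. Neither pooling of animals nor separate animals per library is stated, so each p-value measures the spread between these libraries. Untreated replicates of each genotype differ in sex-linked genes, as given below, so they are not repeats of the same sample. In treated libraries the spread may be technical.

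The hair matrix is the dividing cell population at the base of the growing follicle, and its daughters form concentric layers. The innermost layers become the hair shaft, made of hair keratins and keratin-associated proteins, and an inner root sheath with its own keratins and trichohyalin surrounds and moulds the shaft. TET enzymes oxidise 5-methylcytosine, a step toward loss of methylation, while 5-aza is a cytidine analog that traps DNA methyltransferases and lowers DNA methylation as cells divide. In what follows the untreated difference is DKO minus WT in untreated libraries, the 5-aza difference is DKO minus WT in treated libraries, and the interaction is the 5-aza difference minus the untreated difference, all on the log2(FPKM + 0.1) scale. An interaction with the sign opposite to the untreated difference means that DKO stood closer to WT in the treated libraries, or had passed it.

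Library totals, derived from the FPKM values, ran from 19528602 to 22837436 reads in untreated libraries and from 39493929 to 58353167 in treated ones. The median member had 622 reads in its lowest library. Reads in listed genes made up 55.8 to 62.0% of the totals in untreated libraries and 38.4 to 42.4% in treated ones. FPKM is scaled to the total, so FPKM levels of the untreated and treated tables are not on the same scale. Tet3 was listed at 11.8 and 11.4 FPKM in WT untreated, 6.92 and 7.31 in DKO untreated, 10.4 and 11.5 in WT with 5-aza, and 6.54 and 5.99 in DKO with 5-aza, so every DKO library lay below every WT library. Tet2 stood at 3.23 and 3.28 FPKM against 2.72 and 2.55 untreated, and at 1.81 and 2.00 against 1.58 and 1.56 with 5-aza. Whole-gene values of this kind do not show whether the deleted exons were lost. Matrix and lineage markers were present in all 8 libraries, for example Lef1 at 7.57 to 9.94 FPKM and Mki67 at 43.2 to 84.2 FPKM.

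Libraries with 5-aza were not alike by replicate number. Melanocyte markers, 8 of 13 of them members, summed to 110 FPKM in WT replicate 1 and 157 in DKO replicate 2, but to 24.7 in WT replicate 2 and 32.5 in DKO replicate 1, while untreated libraries held 38.9 to 48.2. Dermal papilla markers, 15 of 20 of them members, summed to 113 and 82.8 FPKM in the first of these pairs of libraries and to 53.4 and 42.5 in the second, against 295 to 408 untreated. Fibroblast markers, 12 of 18 of them members, summed to 98.5 to 201 FPKM with 5-aza and to 679 to 1663 untreated. The sums show that cells or RNA of neighbouring types differed within each treated group. Between the tables the sums differed too, but there the share of reads in listed genes, given above, also enters them.

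Sex-linked genes also differed between the tables. Xist, the RNA of the inactive X chromosome, stood at 82.1 FPKM in WT and 74.4 in DKO untreated replicates 1 and at 0.327 and 1.19 in replicates 2, and the Y-linked Ddx3y had the opposite pattern. All 4 treated libraries held both, with Xist at 16.9 and 23.1 FPKM in WT and 4.60 and 3.65 in DKO, and Ddx3y at 1.24 and 0.917 in WT and 2.08 and 2.00 in DKO. The part of sex and of other cell types in the results below was not tested beyond the values given beside them, and in such bulk libraries fewer cells of a type and less RNA per cell cannot be told apart. Treatment and deposited table also cannot be told apart, although a factor that scales both genotypes of a table alike largely leaves the interaction of genes at this level.

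**Figure D1:**
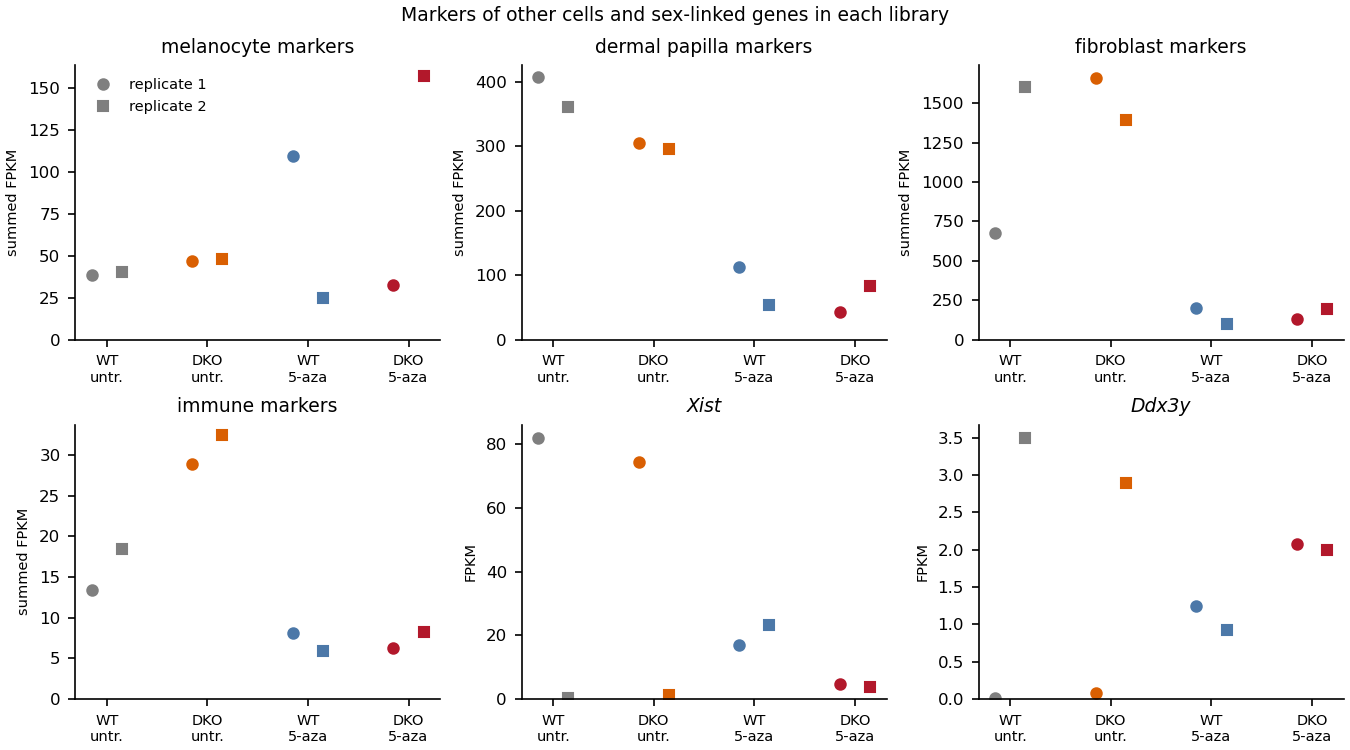
Summed FPKM of 4 marker lists and FPKM of Xist and Ddx3y (vertical axes, linear) in each library, by group (horizontal axis), with circles for replicate 1 and squares for replicate 2. With 5-aza, WT replicate 1 and DKO replicate 2 are high for melanocyte and dermal papilla markers, and all 4 treated libraries hold both Xist and Ddx3y.

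Krt28 was the only gene of 18505 fitted whose genotype difference changed with 5-aza at an adjusted p under 0.05, a background of 0.0054% of genes called. It encodes a type I keratin of the inner root sheath. Its level was 70.4 and 70.7 FPKM in WT untreated libraries and 1.98 and 2.85 in DKO untreated libraries, a 29.2-fold higher WT mean. With 5-aza it stood at 77.6 and 83.5 FPKM in WT and at 45.2 and 51.1 in DKO, a 1.67-fold higher WT mean. DKO libraries thus lay below WT libraries under both conditions, and the gap was narrower with 5-aza.

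For Krt28 the untreated difference was -4.83 ± 0.17 (SE, n = 2 libraries per group) and the 5-aza difference was -0.74 ± 0.17. The interaction was 4.09 ± 0.24 (limma with Benjamini-Hochberg adjustment, two-sided, adjusted p = 0.0210). These values rest on 71 and 90 reads in DKO untreated libraries and 2882 and 4822 reads in DKO libraries with 5-aza, so counting error is small beside the change. The size of the interaction stayed between 3.67 and 4.34 over all 21 alternatives, but the adjusted p did not stay under the threshold. It was 0.125 and 0.120 without WT untreated replicate 1 or 2, 0.220 and 0.155 without WT 5-aza replicate 1 or 2, and 0.186 and 0.113 without DKO 5-aza replicate 1 or 2. It was also 0.0709 with no low-value filter, 0.0536 with no variance trend and 0.286 with a replicate block within each table. With untreated replicates 1 only, the pair with high Xist, the interaction was 4.34 (adjusted p = 0.0779), and with untreated replicates 2 only it was 3.84 (adjusted p = 0.174). In the authors' deposited tables the log2 fold of DKO over WT was -4.91 untreated and -0.81 with 5-aza, with adjusted p of 2.51e-150 and 7.15e-07.

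Krt28 lies on chromosome 11 in the type I keratin cluster, next to Krt27 and near Krt25. In GRCm38 its span is chr11:99364872-99374903, that of Krt27 is chr11:99345565-99351104 and that of Krt25 is chr11:99315516-99322951, all on the minus strand. All of them are inner root sheath keratins, and they are shown together because their untreated differences did not share a direction. Krt25 stood at 65.1 and 63.0 FPKM in WT untreated, 22.3 and 36.0 in DKO untreated, 75.7 and 87.4 in WT with 5-aza, and 58.3 and 68.2 in DKO with 5-aza. Its DKO libraries were below its WT libraries under both conditions, with an interaction of 0.81 ± 0.33 (adjusted p = 0.966). Krt27 stood at 23.8 and 14.4 FPKM in WT untreated and 57.6 and 86.0 in DKO untreated, and at 33.0 and 27.5 in WT and 23.8 and 34.0 in DKO with 5-aza. Its untreated DKO libraries were above the WT libraries, whereas treated DKO and WT overlapped, and its interaction was -2.005 ± 0.44 (adjusted p = 0.689).

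The 250 bases before the RefSeq start of Krt28, Krt27 and Krt25 and of Scel, described next, are printed because DNA methylation is the target of both the knocked-out enzymes and the drug and because Krt28 and Scel are the members with the smallest interaction p, while Krt27 and Krt25 are sheath keratins near Krt28. Capitals mark CG, the dinucleotide that carries methylation, and each sequence reads in the direction of its gene (GRCm38.p6; minus strand for the keratin genes, plus strand for Scel).
Krt28: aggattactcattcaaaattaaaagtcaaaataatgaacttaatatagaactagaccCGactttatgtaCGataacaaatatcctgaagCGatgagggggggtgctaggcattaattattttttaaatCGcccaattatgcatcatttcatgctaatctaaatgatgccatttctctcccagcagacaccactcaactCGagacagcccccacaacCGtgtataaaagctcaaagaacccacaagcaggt
Krt27: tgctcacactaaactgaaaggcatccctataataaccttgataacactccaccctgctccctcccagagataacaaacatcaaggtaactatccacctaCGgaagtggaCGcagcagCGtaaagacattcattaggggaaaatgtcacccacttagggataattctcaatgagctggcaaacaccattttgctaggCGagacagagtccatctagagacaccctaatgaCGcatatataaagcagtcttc
Krt25: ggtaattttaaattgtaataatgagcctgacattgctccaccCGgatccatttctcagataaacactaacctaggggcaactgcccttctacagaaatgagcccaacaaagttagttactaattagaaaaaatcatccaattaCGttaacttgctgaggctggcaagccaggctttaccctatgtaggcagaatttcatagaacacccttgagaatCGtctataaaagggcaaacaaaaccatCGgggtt
Scel: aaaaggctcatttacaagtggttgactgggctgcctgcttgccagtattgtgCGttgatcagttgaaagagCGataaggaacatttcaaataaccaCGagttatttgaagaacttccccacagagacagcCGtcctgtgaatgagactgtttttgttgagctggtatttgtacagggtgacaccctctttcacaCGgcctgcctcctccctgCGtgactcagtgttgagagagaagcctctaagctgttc
CG occurs 6 times in the Krt28 window (chr11:99374904-99375153), 5 times in that of Krt27 (chr11:99351119-99351368), 4 times in that of Krt25 (chr11:99322952-99323201) and 6 times in that of Scel (chr14:103513091-103513340). Of 27025 RefSeq promoter windows of this length, 54.0% held no more CG than the Krt28 and Scel windows, 50.1% no more than Krt27 and 45.0% no more than Krt25. The letters TATAAA, searched on both strands, are present in the keratin windows but not in the Scel window, and 12.9% of all windows hold them. No methylation was measured in these libraries, and the letters are a description of the sequence alone.

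Below the adjusted threshold, 170 members had a higher and 142 a lower genotype difference with 5-aza at an unadjusted p under 0.05, against a background of 2.52% and 2.57% of all fitted genes. Out of 8512 members these counts are near that background, and the median interaction over members was 0.03. With median-ratio scaling the counts were 166 and 239, and with scaling to the reads in genes of both tables they were 145 and 315, so the share on the higher side went from 54.5% to 41.0% and 31.5%. Single libraries moved the counts as well. The higher count was 351 without WT untreated replicate 1, 101 without WT 5-aza replicate 2 and 90 without DKO 5-aza replicate 1, and the lower count was 308 without WT untreated replicate 2 and 92 without DKO untreated replicate 2. An alternative chosen after the data were seen, the difference of the fold changes in the authors' deposited tables over their standard errors, called 20 of 26200 genes (0.0763%), of which 4 members were higher and 9 lower.

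Among the members with the smallest p on the higher side, none but Krt28 passed the adjusted threshold. Scel, which encodes sciellin of the cornified envelope, was listed at 6.53 and 5.31 FPKM in WT untreated and 1.36 and 1.44 in DKO untreated, then at 4.32 and 5.32 in WT and 5.45 and 4.87 in DKO with 5-aza. The untreated groups were far apart and the treated groups overlapped, with an interaction of 2.10 ± 0.20 (limma, adjusted p = 0.124). Zmiz1, a transcriptional coregulator, went from 13.6 and 11.3 FPKM in WT against 7.85 and 7.95 in DKO untreated to 6.20 and 6.33 against 7.42 and 6.39 with 5-aza. Its interaction was 0.78 ± 0.16 (adjusted p = 0.689), and the treated DKO libraries lay just above the WT libraries.

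Plekhh2 stood at 4.29 and 4.16 FPKM in WT and 2.98 and 2.90 in DKO untreated, and at 2.15 and 2.06 in WT and 2.29 and 2.20 in DKO with 5-aza. Klf10, a zinc finger factor induced by TGF-beta, stood at 3.99 and 3.84 against 3.42 and 3.39 FPKM untreated and at 1.64 and 1.53 against 2.06 and 2.21 with 5-aza. The unprocessed pseudogene Gm21092 stood at 3.83 and 4.02 against 3.03 and 3.23 FPKM untreated and at 1.87 and 1.68 against 2.43 and 2.29 with 5-aza. In each of these genes DKO lay below WT untreated and above WT with 5-aza in every library, while the interactions of 0.60 to 0.71 had an adjusted p of 0.689. Reads of a pseudogene can be shared with near-identical copies, so the value of Gm21092 is uncertain.

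On the lower side 0 members passed the adjusted threshold in limma, on log2 values or with voom. Hist1h4i, a replication-dependent histone H4 gene, was listed at 47.3 and 46.8 FPKM in WT and 83.4 and 81.2 in DKO untreated, and at 18.3 and 19.24 in WT and 13.6 and 11.4 in DKO with 5-aza. DKO was above WT untreated and below it with 5-aza, with an interaction of -1.39 ± 0.16 (limma, adjusted p = 0.246). H2-Eb1, an MHC class II beta chain of antigen-presenting cells, was listed at 1.64 and 2.05 against 4.97 and 6.96 FPKM untreated and at 2.52 and 2.35 against 1.89 and 1.48 with 5-aza (interaction -2.14 ± 0.28, adjusted p = 0.375). Immune markers, H2-Eb1 among them, summed to 13.5 and 18.5 FPKM in untreated WT and to 28.9 and 32.4 in untreated DKO. In all treated libraries the sum was 5.92 to 8.27. Only 2 of those 18 markers are members, with 1 positive untreated difference (H2-Eb1) and 1 negative. Cd207, which marks Langerhans cells, stood at 0.261 to 1.01 FPKM untreated and at 0 to 0.0226 with 5-aza.

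The other members with the smallest p on the lower side were RNA genes or pseudogenes. Gm42047, a lincRNA, was listed at 1.35 and 1.46 FPKM in WT and 4.81 and 3.28 in DKO untreated, and at 6.52 and 6.79 in WT and 5.12 and 6.03 in DKO with 5-aza (interaction -1.69 ± 0.25, limma adjusted p = 0.579). Rps4l, a transcribed processed pseudogene on the strand opposite to Tmtc1, stood at 12.3 and 13.2 against 27.4 and 24.1 FPKM untreated and at 28.5 and 24.7 against 31.4 and 28.2 with 5-aza. Mir7687 lies within Gse1 on the same strand and Gm22107 within Myh9, and their values rest on 6 to 12 and 6 to 43 reads, which could belong to those host genes. Interactions of Rps4l, Mir7687 and Gm22107 were -0.84, -1.14 and -1.46, each with an adjusted p of 0.689.

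**Figure D2:**
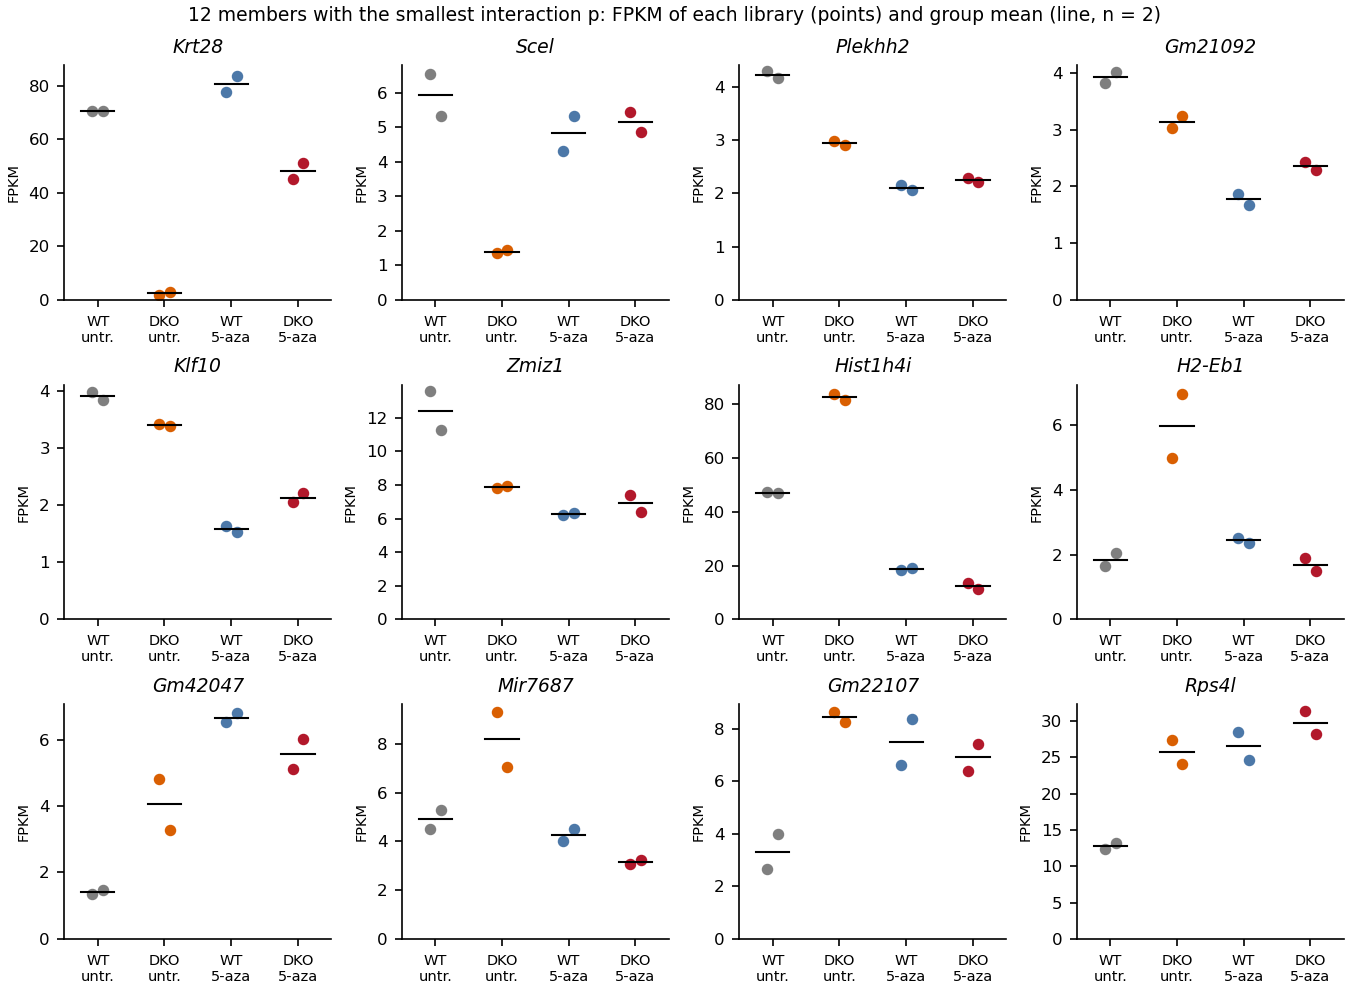
FPKM (vertical axes, linear, from 0) of the 12 members with the smallest interaction p, 6 on each side, in each library (points) with the group mean (line, n = 2), by group (horizontal axis). Krt28 DKO libraries move from 1.98 and 2.85 FPKM untreated to 45.2 and 51.1 with 5-aza, and only its interaction passed the adjusted threshold.

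The DKO changes themselves were then followed into the treated libraries. The authors' deposited untreated table lists 134 members as higher and 67 as lower in DKO at an adjusted p under 0.05, against a background of 1.27% and 0.773% of fitted genes. Their untreated differences chose them and are a description. The 5-aza differences come from other libraries, and because selection on one set of libraries favours large values there, a smaller value in another set is not by itself a change.

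Of the 134 members higher in untreated DKO, 122 had a positive difference with 5-aza too, beside 70.1% of all members. Their median difference was 0.82 untreated and 0.49 with 5-aza, and the mean with 5-aza was 0.50 ± 0.15 (SE from library means, n = 2 per group). Both treated DKO libraries lay above both treated WT libraries for 100 of them, against a background of 32.6% of fitted members and 27.3% of fitted genes. The authors' deposited 5-aza table lists 35 of the 134 as higher in DKO at an adjusted p under 0.05 and 0 as lower. The background for higher was 76 of the 8512 fitted members and 0.865% of fitted genes. By size, 81 had at least 50% of their untreated difference with 5-aza, 41 had the same direction with less than 50%, and 12 had the opposite direction. Those 12 were Tchh, Krt27, Krt73, H2-Eb1, Hist1h4i, Hist1h4a, Hist1h1c, Gm42047, Gm6166, Cited4, Tnc and Hspa1b, so 3 are inner root sheath genes and 3 are histone genes.

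For the 67 members lower in untreated DKO the picture was less even. A negative difference with 5-aza was found for 58 of them, beside 2543 of all 8512 fitted members. The median was -0.63 untreated and -0.32 with 5-aza, and the mean with 5-aza was -0.40 ± 0.42. Both treated DKO libraries lay below both treated WT libraries for 17 of them, against a background of 8.21% of fitted members and 11.6% of fitted genes. The authors' deposited 5-aza table lists 3 of the 67 as lower, beside 16 of the 8512 fitted members and 0.254% of fitted genes. At least 50% of the untreated difference was present in 31, less than 50% in 27, and 9 had the opposite direction, namely Scel, Prnp, Igfbp5, Zmiz1, Trps1, Plekhh2, Sdc3, Wwtr1 and Lamc3. The median rests on single libraries: it was -0.05 without WT 5-aza replicate 1, -0.71 without WT 5-aza replicate 2, -0.13 without DKO 5-aza replicate 1 and -0.60 without DKO 5-aza replicate 2. Dermal papilla markers supply 7 of the 67. Their summed FPKM untreated was 408 and 362 in WT and 305 and 295 in DKO, and the treated sums are given above. Of the 15 papilla members, 14 had a negative untreated difference and 10 a negative one with 5-aza, beside 3456 and 2543 of the 8512 fitted members. The part of papilla cells in the 67 was not tested.

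**Figure D3:**
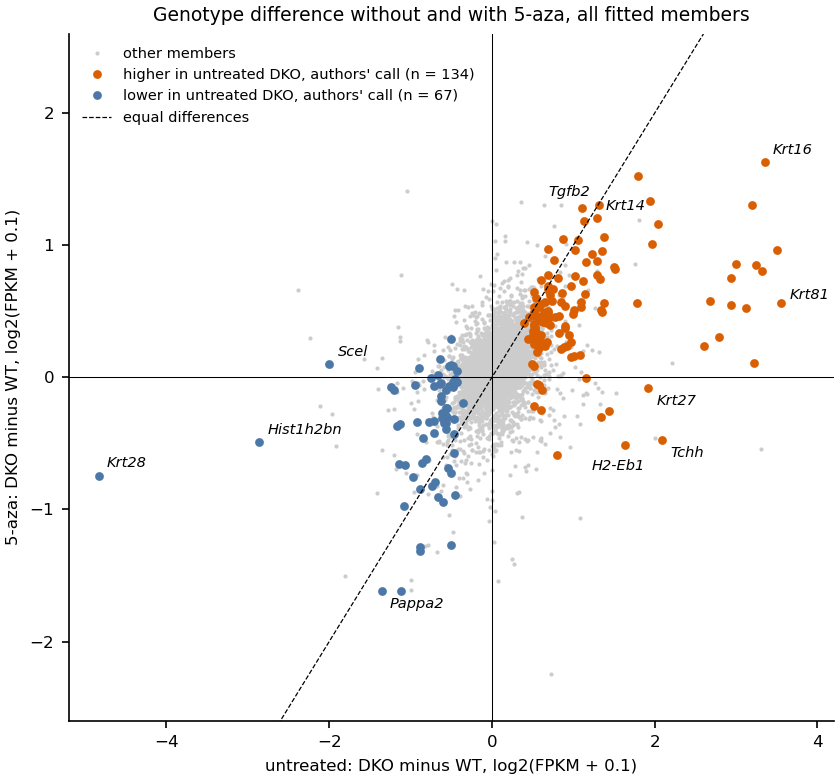
Untreated difference (horizontal axis) against 5-aza difference (vertical axis) of the 8512 fitted members, both DKO minus WT on log2(FPKM + 0.1); coloured points are the 134 and 67 members that the authors' deposited untreated table lists as higher and lower in DKO, and the dashed line marks equal differences. Most coloured points keep the sign of their untreated difference, while Krt28, Scel and Hist1h2bn lie far to the left with 5-aza differences of -0.74, 0.10 and -0.49, and the shaft keratins lie far to the right.

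Hair shaft keratins had large untreated differences and smaller ones with 5-aza. Of 16 listed genes 8 are members, all 8 were higher in both DKO untreated libraries, and their median difference was 3.06 untreated and 0.66 with 5-aza. The interaction was negative for all 8, beside 3660 of the 8512 fitted members, with a median of -2.44 against 0.03 over all members. An unadjusted p under 0.05 was found for 7 of 8, beside 142 of the 8512 fitted members on the lower side, but 0 passed the adjusted threshold. The mean over the list was -2.33 ± 1.03. These genes were in the authors' untreated list, so the sign and the size of their interaction are partly set by the untreated difference that it contains.

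Krt81, a type II hair keratin of the cortex, was listed at 1.77 and 3.38 FPKM in WT untreated, 25.7 and 34.8 in DKO untreated, 3.38 and 0.890 in WT with 5-aza, and 1.18 and 5.73 in DKO with 5-aza. Untreated groups were far apart and treated groups overlapped, and the interaction was -3.00 ± 1.18 (limma, adjusted p = 0.964). Krt33b, a type I hair keratin, was listed at 2.25 and 4.41 against 26.2 and 35.0 FPKM untreated and at 5.32 and 1.96 against 1.71 and 7.03 with 5-aza. Its 5-aza difference was 0.10 ± 0.73, with an error larger than the difference. Krt87 and Krt33a had 5-aza differences of 0.85 ± 0.59 and 0.53 ± 0.64 after untreated differences of 3.24 and 3.12, and Krt31, Krt86 and Krt83 had 0.85, 0.75 and 0.31 after 3.00, 2.94 and 2.79. Krt35, a keratin of the early shaft, stood at 11.9 and 15.6 against 31.6 and 48.2 FPKM untreated and at 17.9 and 17.5 against 26.5 and 37.1 with 5-aza, where the groups did not overlap.

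These 5-aza differences depended on which treated libraries were compared. Between treated replicates 1, DKO was higher for 1 of 8 shaft keratins with a median difference of -0.72, and between treated replicates 2 for 8 of 8 with a median of 1.88. Between WT replicate 1 and DKO replicate 2, the pair alike in melanocyte and papilla markers, DKO was higher for 8 of 8 with a median of 0.77. Between WT replicate 2 and DKO replicate 1 it was higher for 7 of 8 with a median of 0.46. In all of these pairs other than treated replicates 2, the median was below 1, whereas both untreated pairs had medians of 3.14 and 2.97.

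Keratin-associated proteins, the matrix proteins between keratin filaments of the shaft, had a similar pattern. Only 4 of 40 listed genes are members, all 4 were in the authors' untreated list as higher, and their median difference was 3.07 untreated and 0.76 with 5-aza, with an interaction of -2.38. Krtap13-1 stood at 0.760 and 1.35 FPKM in WT and 9.56 and 16.5 in DKO untreated, and at 1.75 and 0.350 in WT and 0.811 and 3.39 in DKO with 5-aza. Krtap8-1 stood at 6.496 and 12.0 against 70.6 and 94.6 FPKM untreated and at 13.6 and 6.13 against 15.6 and 32.9 with 5-aza. Treated groups overlapped for the first and not for the second, and the interactions of the 4 genes had adjusted p of 0.802 to 0.985. The nearby gene 4930553J12Rik, which overlaps Krtap14 on the opposite strand, stood at 0.999 and 1.75 against 11.6 and 17.3 FPKM untreated and at 2.80 and 0.925 against 1.96 and 4.30 with 5-aza.

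Shaft genes other than keratins did not share this size of change. Of 20 listed genes 12 are members. A negative interaction was found for 9, beside 3660 of the 8512 fitted members, and 2 had an unadjusted p under 0.05. The median was -0.29, and it was -0.08 without DKO untreated replicate 2 and -0.52 without DKO untreated replicate 1. Gprc5d, a membrane protein of the hair cortex, was like the keratins at 0.972 and 1.37 against 6.32 and 9.96 FPKM untreated and 1.73 and 0.862 against 1.17 and 2.98 with 5-aza. Dsg4, the desmosomal cadherin of the shaft, stood at 3.31 and 3.73 FPKM in WT against 12.2 and 15.5 in DKO untreated, and 3.14 and 3.28 against 7.47 and 9.12 with 5-aza. Hoxc13, the homeobox factor that drives hair keratin genes, stood at 9.49 and 15.8 against 24.4 and 30.7 FPKM untreated and at 13.0 and 11.6 against 22.0 and 23.1 with 5-aza. Foxn1, another regulator of the shaft, stood at 3.72 and 3.31 against 7.08 and 8.10 FPKM untreated and at 5.47 and 7.52 against 10.5 and 8.68 with 5-aza. For Dsg4, Hoxc13 and Foxn1 every treated DKO library was above every treated WT library, as in untreated libraries, and none of the 3 interactions passed (adjusted p of 0.895, 0.990 and 0.985).

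Inner root sheath genes split by direction. Of 22 listed genes 14 are members, with 2 higher and 4 lower interactions at an unadjusted p under 0.05 and 1 call, Krt28. Beside Krt27, the lower ones were Tchh (trichohyalin), Krt73 and Krt71. Tchh stood at 6.79 and 4.91 FPKM in WT and 17.9 and 34.4 in DKO untreated, and at 30.5 and 19.8 against 10.3 and 30.0 with 5-aza, with an interaction of -2.56 ± 0.77 (limma, adjusted p = 0.845). Krt73, a type II sheath keratin, stood at 33.6 and 23.4 against 65.4 and 77.8 FPKM untreated and at 79.5 and 62.6 against 40.1 and 81.6 with 5-aza. Krt71, also of type II, stood at 88.4 and 58.1 against 143 and 217 FPKM untreated and at 118 and 154 against 124 and 132 with 5-aza. In each of Tchh, Krt73 and Krt71, DKO was above WT untreated and the treated groups overlapped.

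**Figure D4:**
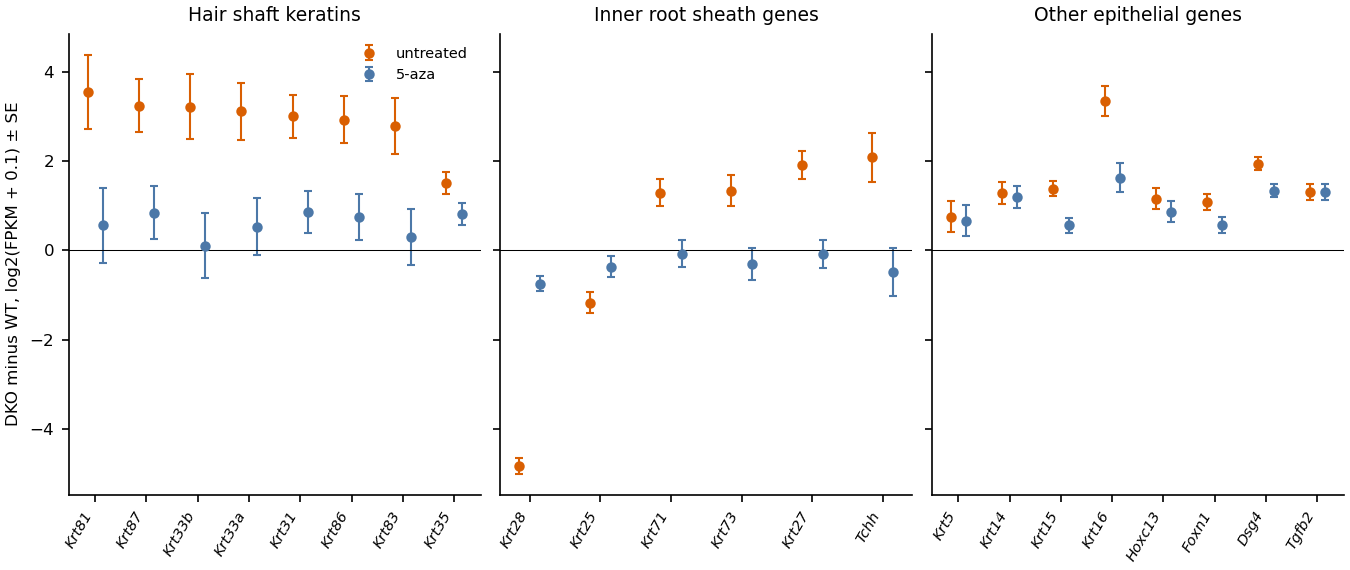
DKO minus WT difference on log2(FPKM + 0.1) (vertical axis) with its SE, untreated and with 5-aza, for 8 hair shaft keratins, 6 inner root sheath genes and 8 other epithelial genes (horizontal axis, 1 gene per position). Shaft keratins stand at 1.51 to 3.56 untreated and at 0.10 to 0.85 with 5-aza, and Krt14 and Tgfb2 stand at about the same difference in both.

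Of 24 basal and outer root sheath genes listed, 16 are members. A positive difference was found for 12 of the 16 untreated and for 14 with 5-aza, beside 5056 and 5969 of the 8512 fitted members. Treated libraries did not overlap, with DKO above, for 12 of the 16, beside 2775 of the 8512 and 27.3% of all fitted genes. The median was 0.18 untreated and 0.44 with 5-aza, and the interaction had a median of 0.14, which was 0.06 without WT untreated replicate 2 and 0.21 without DKO 5-aza replicate 2. Krt14, the basal keratin whose promoter drives Cre here, stood at 71.9 and 84.7 FPKM in WT and 175 and 209 in DKO untreated, and at 43.0 and 29.5 against 71.1 and 95.2 with 5-aza, an interaction of -0.09 ± 0.35. Its partner Krt5 stood at 298 and 372 against 544 and 578 FPKM untreated and at 236 and 200 against 330 and 363 with 5-aza. Krt15, a keratin of the outer sheath and bulge, had an unadjusted interaction p under 0.05: it stood at 20.0 and 17.1 against 44.5 and 52.3 FPKM untreated and at 20.9 and 23.5 against 37.4 and 28.7 with 5-aza.

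Companion layer and stress keratins gave 5 members of 6 listed, and all 5 were higher in both treated DKO libraries than in both treated WT libraries. The background was 32.6% of fitted members and 27.3% of fitted genes. Krt16, a keratin induced in stressed or wounded epidermis, stood at 2.31 and 1.72 FPKM in WT and 17.8 and 25.3 in DKO untreated, and at 1.73 and 1.25 against 3.496 and 6.45 with 5-aza, so its difference went from 3.35 to 1.63 (interaction -1.72 ± 0.46, limma adjusted p = 0.787). Krt17 stood at 68.5 and 79.4 against 68.4 and 98.9 FPKM untreated, where groups overlapped, and at 124 and 85.0 against 179 and 246 with 5-aza, where they did not. Krt75, the companion layer keratin, was likewise separated only with 5-aza, at 43.4 and 49.9 against 73.7 and 62.2 FPKM. Neither interaction passed (adjusted p = 0.985 for both).

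Interfollicular differentiation genes, 12 members of 29 listed, had 8 positive interactions, beside 4852 of the 8512 fitted members. Scel alone had an unadjusted p under 0.05, and the median over the list was 0.12. That median was -0.02 without WT untreated replicate 1, -0.03 without DKO untreated replicate 1 and 0.27 without DKO untreated replicate 2. Sprr1a, a small proline-rich envelope protein, stood at 4.68 and 4.69 against 12.6 and 27.7 FPKM untreated and at 1.21 and 1.00 against 1.83 and 2.96 with 5-aza. Ivl, which encodes involucrin, stood at 1.78 and 1.01 against 0.985 and 1.12 FPKM untreated and at 2.24 and 1.71 against 2.26 and 3.70 with 5-aza. Desmosome genes gave 13 members of 16, of which 11 had both treated DKO libraries above both WT libraries (2775 of the 8512 members and 27.3% of fitted genes did), with a median difference of 0.52 untreated and 0.41 with 5-aza. Dsg3, the desmosomal cadherin of basal cells, was at 10.5 and 12.7 against 10.2 and 11.3 FPKM untreated and at 6.21 and 5.54 against 9.78 and 9.04 with 5-aza (interaction 0.78 ± 0.17, limma adjusted p = 0.689). The desmosome median interaction of 0.01 turned negative under both other scalings and ran from -0.17 to 0.08 with single libraries left out.

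Wnt genes (30 members of 35 listed) had a median interaction of 0.01, BMP genes (19 of 24) 0.10, Hedgehog genes (11 of 15) 0.14 and Notch genes (14 of 20) 0.01, and 0 members of these lists passed the adjusted threshold. The Wnt and Notch medians turned negative under both other scalings, and single libraries moved all 4. With 1 library left out the medians ran from -0.08 to 0.07 for Wnt and from -0.09 to 0.13 for Notch genes. For BMP genes the median was -0.003 without DKO untreated replicate 1 and 0.21 without DKO untreated replicate 2, and for Hedgehog genes it was 0.07 without DKO 5-aza replicate 2 and 0.30 without WT 5-aza replicate 1. The members with an unadjusted p under 0.05 were 1 Wnt, 2 BMP and 2 Hedgehog genes, all on the higher side. Gli1, a transcriptional target and effector of Hedgehog signalling, stood at 21.9 and 17.6 FPKM in WT and 15.5 and 15.01 in DKO untreated, and at 8.68 and 9.69 against 11.1 and 10.3 with 5-aza. Ptch1, the Hedgehog receptor and also a target, stood at 22.6 and 16.4 against 14.7 and 13.7 FPKM untreated and at 6.49 and 6.71 against 7.22 and 6.996 with 5-aza. In both genes DKO lay below WT untreated and above it with 5-aza, with interactions of 0.58 ± 0.17 and 0.55 ± 0.20 (limma, adjusted p = 0.845 and 0.937).

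Notum, an extracellular enzyme that inactivates Wnt proteins, had an interaction of 1.01 ± 0.38, from 8.14 and 7.53 against 5.65 and 6.68 FPKM untreated to 2.59 and 1.59 against 2.62 and 4.06 with 5-aza. Fst, follistatin, which binds activins and BMPs, stood at 16.2 and 9.13 against 6.77 and 5.74 FPKM untreated and at 2.92 and 2.31 against 2.52 and 2.82 with 5-aza. Id2, a target of BMP signalling, stood at 10.2 and 9.26 against 9.58 and 8.30 FPKM untreated and at 3.67 and 2.496 against 4.08 and 4.91 with 5-aza. Notum is also on the dermal papilla list, whose sums differ between the treated libraries as given above. Tgfb2, a ligand of the TGF-beta family on none of these lists, stood at 1.34 and 1.70 against 3.93 and 3.86 FPKM untreated and 1.01 and 1.23 against 3.31 and 2.53 with 5-aza, a difference of 1.31 ± 0.18 in each.

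Matrix and shaft regulators gave 28 members of 30 listed, with 0 members at an unadjusted p under 0.05 and a median interaction of 0.03, which was -0.02 with scaling to reads in genes of both tables, -0.06 without WT untreated replicate 2 and 0.23 without WT untreated replicate 1. Trps1, a repressor expressed in matrix and papilla, came nearest, at 14.1 and 10.7 against 8.91 and 8.05 FPKM untreated and 3.95 and 2.97 against 3.35 and 3.97 with 5-aza. All 30 proliferation genes listed are members, and their median interaction was 0.02, negative under both other scalings and from -0.10 to 0.12 without DKO 5-aza replicate 1 or 2. Aurka and Birc5, which act in mitosis, had the smallest p of that list and interactions of -0.32 ± 0.11 and -0.31 ± 0.11 (limma, adjusted p = 0.893 and 0.908).

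Genes of the DNA methylation machinery, 16 members of 24 listed, had a positive interaction in 14 cases, beside 4852 of the 8512 fitted members. The median was 0.14, from 0.10 to 0.22 with single libraries left out and 0.03 with untreated replicates 1 only. The mean was 0.21 ± 0.08. Mbd2, which binds methylated CG, stood at 11.4 and 14.0 FPKM in WT and 11.4 and 10.7 in DKO untreated, and at 11.5 and 10.2 against 15.7 and 14.2 with 5-aza, an interaction of 0.65 ± 0.18 (limma, adjusted p = 0.787). Zbtb4, another methyl-CG binding protein, stood at 3.24 and 3.06 against 2.68 and 2.67 FPKM untreated and at 1.28 and 1.01 against 1.34 and 1.43 with 5-aza. Dnmt1, the maintenance methyltransferase that 5-aza traps, stood at 11.8 and 13.9 against 11.9 and 11.1 FPKM untreated and at 12.2 and 12.9 against 13.0 and 11.3 with 5-aza. Groups of Mbd2 were apart only with 5-aza, and those of Dnmt1 overlapped in both tables. Dnmt3a, a de novo methyltransferase, was at 1.83 to 2.11 FPKM untreated and at 0.926 to 1.32 with 5-aza, with overlapping groups in both tables. Dnmt3b was not a member, at 0.151 to 0.321 FPKM. The interactions of Dnmt1, Dnmt3a, Tet2 and Tet3 were 0.10 ± 0.16, 0.12 ± 0.25, 0.04 ± 0.13 and -0.10 ± 0.12, with adjusted p of 0.990 to 0.998.

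Imprinted genes, 9 members of 32 listed, gave 7 positive interactions, beside 4852 of the 8512 fitted members. Their median was 0.16, and 0 had an unadjusted p under 0.05. The median was 0.03 without WT untreated replicate 2 and 0.25 without WT untreated replicate 1. H19, an imprinted noncoding RNA, had a genotype difference of 1.11 ± 0.19 untreated and 1.28 ± 0.19 with 5-aza, at 10.3 and 15.3 against 24.8 and 29.8 FPKM untreated and 9.40 and 8.90 against 23.2 and 21.5 with 5-aza. Of the 24 germline genes known to be silenced by methylation, 0 reached the floor in all 4 groups, and of 26 interferon-stimulated genes only 1 did. These lists therefore say next to nothing among members. p53 target genes, 15 members of 20, had 13 negative interactions, beside 3660 of the 8512 fitted members. Their median was -0.13, which was -0.04 without DKO untreated replicate 2 and -0.23 without DKO untreated replicate 1. The list was led by Sesn2 at 3.22 and 2.81 against 3.73 and 4.18 FPKM untreated and 6.14 and 6.07 against 5.49 and 5.84 with 5-aza. Ccng1, cyclin G1, was second with an interaction of -0.56 ± 0.20 (limma, adjusted p = 0.914).

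Replication-dependent histone genes gave 54 members of 66 listed, with 38 negative interactions, beside 3660 of the 8512 fitted members. At an unadjusted p under 0.05 there were 6 negative and 1 positive, and the median was -0.26. Untreated, 27 of 54 had a positive difference, and with 5-aza 1 of 54 did, with both DKO libraries below both WT libraries for 33, beside 699 of the 8512 members and 11.6% of fitted genes. The untreated count differed by replicate: 39 of 54 were higher in DKO between untreated replicates 1 and 20 of 54 between replicates 2. Over all 8512 fitted members the counts were 6112 and 3896, so the replicates also differed beyond this list. The median interaction was -0.50 without DKO 5-aza replicate 1 and -0.12 without DKO 5-aza replicate 2. Hist1h2bn, a histone H2B gene, was far apart untreated, at 140 and 161 FPKM in WT and 17.9 and 23.7 in DKO, and was listed at 2.84 and 5.92 against 3.86 and 2.16 with 5-aza. Hist1h1c, a linker histone, stood at 42.6 and 45.8 against 59.6 and 75.7 FPKM untreated and at 127 and 125 against 106 and 107 with 5-aza. Summed histone FPKM was 5385 to 6082 untreated and 2025 to 2779 with 5-aza, and the share of reads in listed genes differed between these tables as given above. Most such transcripts lack a poly(A) tail, and the labels name both a messenger RNA kit and a ribosomal RNA depletion kit without assigning them, so their part in these values was not tested.

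**Figure D5:**
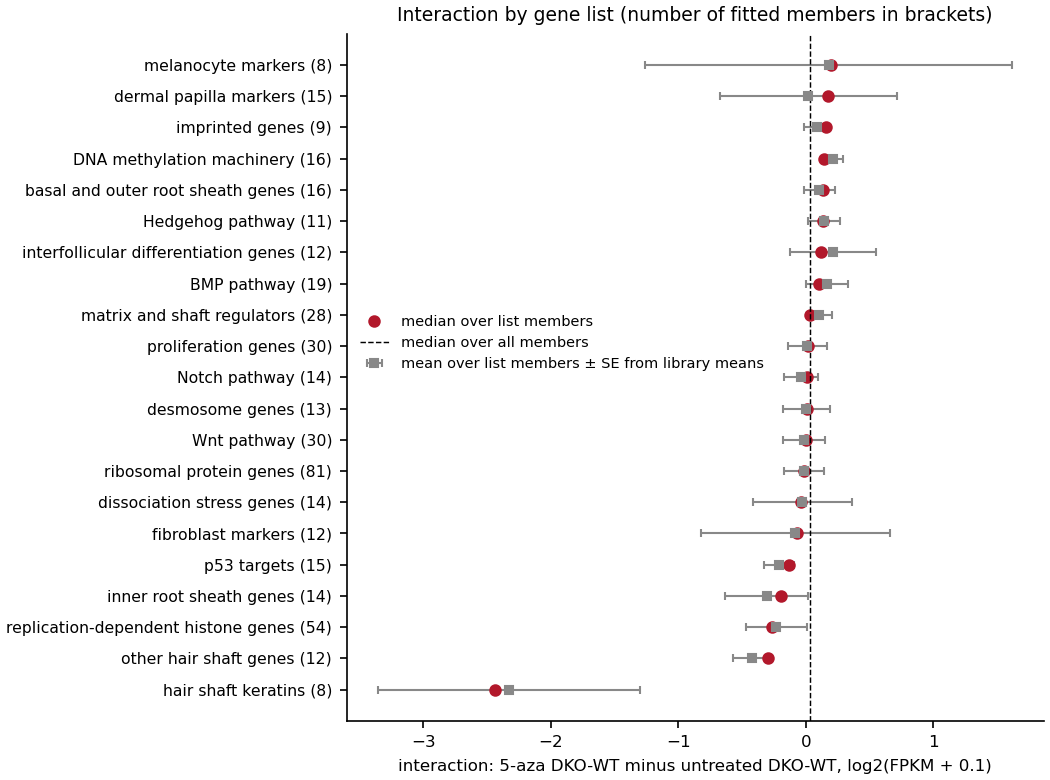
Interaction (horizontal axis, log2(FPKM + 0.1)) of 21 gene lists with at least 8 fitted members (vertical axis, number in brackets), as the median over members (circles) and the mean with its SE from library means (squares, n = 2 libraries per group); the dashed line is the median of all members. Hair shaft keratins lie at -2.44 and the other lists between -0.29 and 0.20, with the widest errors for melanocyte markers and hair shaft keratins.

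The remaining members with large untreated deficits in DKO differed in what 5-aza libraries showed. Pappa2, a protease of IGF-binding proteins, stood at 41.5 and 29.0 against 12.5 and 14.5 FPKM untreated and at 9.70 and 4.65 against 1.43 and 3.14 with 5-aza. DKO lay below WT in both tables, but the 5-aza difference was -2.68 between replicates 1 and -0.55 between replicates 2, and the authors' deposited tables give it an adjusted p of 0.00153 untreated and 0.811 with 5-aza. Crabp2, a retinoic acid binding protein, stood at 8.69 and 10.1 against 3.81 and 4.59 FPKM untreated and at 3.99 and 1.45 against 1.18 and 1.88 with 5-aza, where groups overlapped. Cxcr4, a chemokine receptor, and Draxin, a Wnt antagonist and guidance protein, had untreated differences of -1.24 ± 0.43 and -1.21 ± 0.48 and 5-aza differences of -0.07 ± 0.43 and -0.10 ± 0.48. Cxcr4 stood at 1.76 and 0.816 FPKM in treated WT and 0.806 and 1.60 in treated DKO, and Draxin at 1.72 and 0.681 against 0.687 and 1.48, high in the same pair of libraries as the papilla and melanocyte markers. Their interactions of 1.17 and 1.11 had an adjusted p of 0.985 each, and the part of those other cells in them was not tested.

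Across the 8512 fitted members, 3544 had untreated DKO and WT libraries that did not overlap and 3474 had treated libraries that did not. Untreated, DKO lay above for 2293 and below for 1251, and with 5-aza for 2775 and 699. Over all 18505 genes fitted the counts were 4453 and 3483 untreated and 5048 and 2154 with 5-aza. The direction was the same in both tables for 1338 members and opposite for 304, of which 115 were higher in DKO untreated and lower with 5-aza and 189 the reverse. No share over all fitted genes stands beside these counts of direction. With 2 libraries per group and 4 residual degrees of freedom, 0 of the 8 shaft keratins passed the adjusted threshold. An unadjusted p under 0.05 was found for 7, but all 8 were in the authors' untreated list. Their interactions contain that untreated difference with its sign reversed, so the 7 small p-values are not separate support. Their 5-aza differences also varied with the pair of treated libraries compared, as given above.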

How the data were processed

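Members and lists were chosen with earlier results of these data known. Per the submitters' processing notes, reads were handled with Trim Galore, STAR, HTSeq and DESeq2 on GRCm38 (mm10); versions are not given in the sources used here. Untreated and treated libraries come in separate deposited tables. Their library columns are FPKM, a unit read from the values: deposited FPKM times length and library total, rescaled, gives whole reads within 0.001 for 100% of values. The authors' fold changes are log2 ratios of WT to DKO, reversed in sign here, with standard errors on that scale. The deposited p-value columns are those of the authors' DESeq2 test, their statistic is a score, the deposited mean is a signal over libraries, and the deposited length is in bases.

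Of 26200 genes, 18505 were kept: those with 15 or more reads in total that reached 10 reads, scaled to a library of median size, in 2 or more libraries. The limma package (3.58.1, R 4.3.3) was fitted to log2(FPKM + 0.1) of all 8 libraries, using a trended variance and no block, and p-values were adjusted by Benjamini-Hochberg over all genes fitted, threshold 0.05, and checked on simulated data. The planned count test was not used, since the files hold FPKM. A change of a low gene is understated by the added 0.1. Genes named are the members with the smallest interaction p (6 per direction where fewer pass), the 8 highest and 8 lowest untreated differences of the authors' list, up to 4 per list and those a list's description turns on, and the Tet and Dnmt genes. In all 35 lists were drawn up. Coordinates are those of the tables, biotypes are from GENCODE, and promoter sequences are from RefSeq. Alternatives tried numbered 17 planned and 4 chosen after seeing the data.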

Additional observations from a re-analysis of the deposited data

Results flagged for a closer look

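The genotype difference of Krt28 itself differed between untreated and treated mice, by an interaction of 4.09 on the log2 scale (limma, Benjamini-Hochberg adjusted p = 0.0210). DKO was below WT in all 4 pairings of libraries in each table. With a replicate block within each table the limma adjusted p was 0.286. Adjusted p ran from 0.0217 to 0.220 when single libraries were left out.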

How the results depend on the processing

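Over 21 alternatives the interaction of Krt28 kept its direction and stayed between 3.67 and 4.34. Its call, 1 member higher in the report, went to 0 members with no low-value filter (adjusted p = 0.0709), no variance trend (0.0536), a replicate block within each table (0.286), crossed numbers in the 5-aza block (0.0768), untreated replicates 1 only (0.0779) or untreated replicates 2 only (0.174), and ranged from 0 to 1 with single libraries left out. Same-numbered libraries deviated together only weakly in the untreated table (correlation 0.10) and oppositely in the 5-aza table (-0.60), so the main fit did not pair libraries by number. Untreated libraries of the same number do share their Xist and Ddx3y pattern across genotypes, so a pairing there cannot be set aside. The block and crossed numbers gave 83 and 246 members higher and 130 and 237 lower at an unadjusted p under 0.05. Members lower by the adjusted p ranged from 0 to 1 with single libraries left out (Gm6969, named after its value was seen) and were 1 with untreated replicates 2 only. The difference of the authors' deposited fold changes, chosen after seeing the data like the crossed block and the untreated subsets, called 20 of 26200 genes (0.0763%), 4 members higher and 9 lower, with 82 higher at an unadjusted p under 0.05. Members named in the report that it adds as calls were the 10 genes Scel, Dsg3, Zmiz1, Hist1h4i, Hist1h1c, H2-Eb1, Gm42047, Rps4l, 4930553J12Rik and Krtap7-1; the cause was not tested. At an unadjusted p under 0.05 the higher count was 100 with no variance trend and 368 with untreated replicates 2 only, and 90 to 351 with single libraries left out. The lower count was 239 and 315 under the other scalings, 215 with untreated replicates 2 only, and 92 to 308 with single libraries left out. The median interaction of members shifted by -0.03 and -0.05 under the 2 scalings.

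Signs that turned were those of uncalled interactions. Tgfb2 was 0.0098 with a pseudocount of 0.01, 0.007 with voom and 0.167 with untreated replicates 2 only. Tet2 was -0.0184 with scaling to reads in genes, -0.0188 with untreated replicates 1 only and -0.0127 from the authors' fold changes. Dnmt1 was -0.0664 with untreated replicates 1 only, Krt5 0.0334 with untreated replicates 2 only, and Pappa2 0.006 with a pseudocount of 1 and 0.102 with untreated replicates 1 only. With single libraries left out, ranges that crossed 0 were -0.1111 to 0.4514 for H19, -0.648 to 0.0808 for Hoxc13, -0.0193 to 0.2149 for Dnmt1, -0.2129 to 1.189 for Crabp2, -0.1181 to 0.3565 for Dnmt3a, -0.1942 to 0.1804 for Tgfb2, -0.0296 to 0.1024 for Tet2, -0.3581 to 0.185 for Krt14, -0.2446 to 0.0768 for Krt5 and -0.8045 to 0.2815 for Pappa2. Depth limits members with few reads, such as Mir7687 and Gm22107, with 6 to 43 reads.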
